A study of Mus musculus with 6 samples.

Results

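The genes described here encode the enzymes and transporters that take glucose into a mouse cell, break it down to pyruvate, exchange pyruvate with lactate and pass pyruvate into the mitochondrial pyruvate dehydrogenase complex. They were chosen by name from a list ordered by enzymatic step, and all 36 listed names were found among the 22969 distinct gene names of the deposited RNA-seq table. The list covers 16 steps, 11 of them with isoenzymes or alternative subunits to compare. The ESCs were pluripotent cells of the mouse line E14Tg2a, kept with leukemia inhibitory factor (LIF), a cytokine that maintains self-renewal. The NCs, named neuronal cells by the study, were monolayers of the same line from which LIF had been removed and to which 1 μM retinoic acid (RA), a signal for differentiation, had been given for 48 h. Each condition was sequenced in 3 samples at passages 37 to 40, each from a pair of culture plates, in serum medium that held glucose and pyruvate for every sample. The medium, the serum and the line were thus shared by both conditions, LIF and RA differed together, and 1 line limits how far the values carry to other cells.

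Glycolysis splits glucose into pyruvate in the cytosol. Its hexose phase spends ATP to phosphorylate the sugar, and its triose phase recovers ATP and reduces NAD. Lactate dehydrogenase regenerates NAD by reducing pyruvate to lactate, monocarboxylate transporters move lactate and pyruvate across the membrane, and pyruvate dehydrogenase kinases switch off the complex that would otherwise turn pyruvate into acetyl-CoA. Pluripotent cells are known for a high rate of glycolysis even where oxygen is present. Several steps have isoenzymes that differ in regulation and tissue, so which isoenzyme is expressed matters beside how much.

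The deposited table holds 1 pooled level per gene and condition, estimated over the 3 samples together. Its unit is FPKM, fragments mapped to a gene scaled by transcript length and by all mapped fragments. It holds no values of single samples, so no SD was computed, the conditions were not tested here, and every comparison below describes a pair of pooled levels. Because of the scaling by length, levels of different genes can be set side by side. In these bulk RNA samples, fewer cells of a type and less RNA per cell cannot be told apart. The labels were checked against marker genes. All 10 pluripotent cell markers were at least 2-fold lower in NCs, with a summed level of 6282 FPKM in ESCs against 955 in NCs, while 6 of the 7 neural progenitor markers with a mean of at least 1 FPKM were at least 2-fold higher. Of the neuron markers, 5 of 6 at that level were at least 2-fold lower in NCs. Their sum over all 10 genes was 195 FPKM in ESCs against 26.5 in NCs. Stmn2 made most of the ESC sum, with 142 FPKM in ESCs against 11.8 in NCs. Of the neuron markers under that level, some were higher and some lower in NCs. Only 4 of 10 reached 1 FPKM in NCs, so NC is used here as the study's name and not as a neuron. The RNA of NCs also held more of the 6 endoderm markers (7.91 FPKM in ESCs, 20.02 FPKM in NCs) and of the 6 fibroblast markers (21.6 and 55.4 FPKM). Of the 5 fibroblast markers with a mean of at least 1 FPKM, 4 were at least 2-fold higher and Thy1 was 5.36-fold lower. The part of such cells in the values below was not tested.

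The glycolytic genes as a group stood lower in NCs. Of the 35 members with a mean over both conditions of at least 1 FPKM, 30 had the lower value in NCs, and the median log2 ratio of NC to ESC was -0.86, with quartiles at -1.24 and -0.35. At least 2-fold lower levels in NCs were found for 13 members (37.1%), against 9.75% of the 12714 genes with the same mean and a value above 0 in both conditions. At least 2-fold higher levels were found for 2 members (5.71%), Pdk3 and Pfkfb4, against 10.9% of all these genes. The median log2 ratio over all of them was -0.04. The remaining member, the liver and red cell pyruvate kinase gene Pklr, had a mean under 1 FPKM and was left out of the counts.

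**Figure D1:**
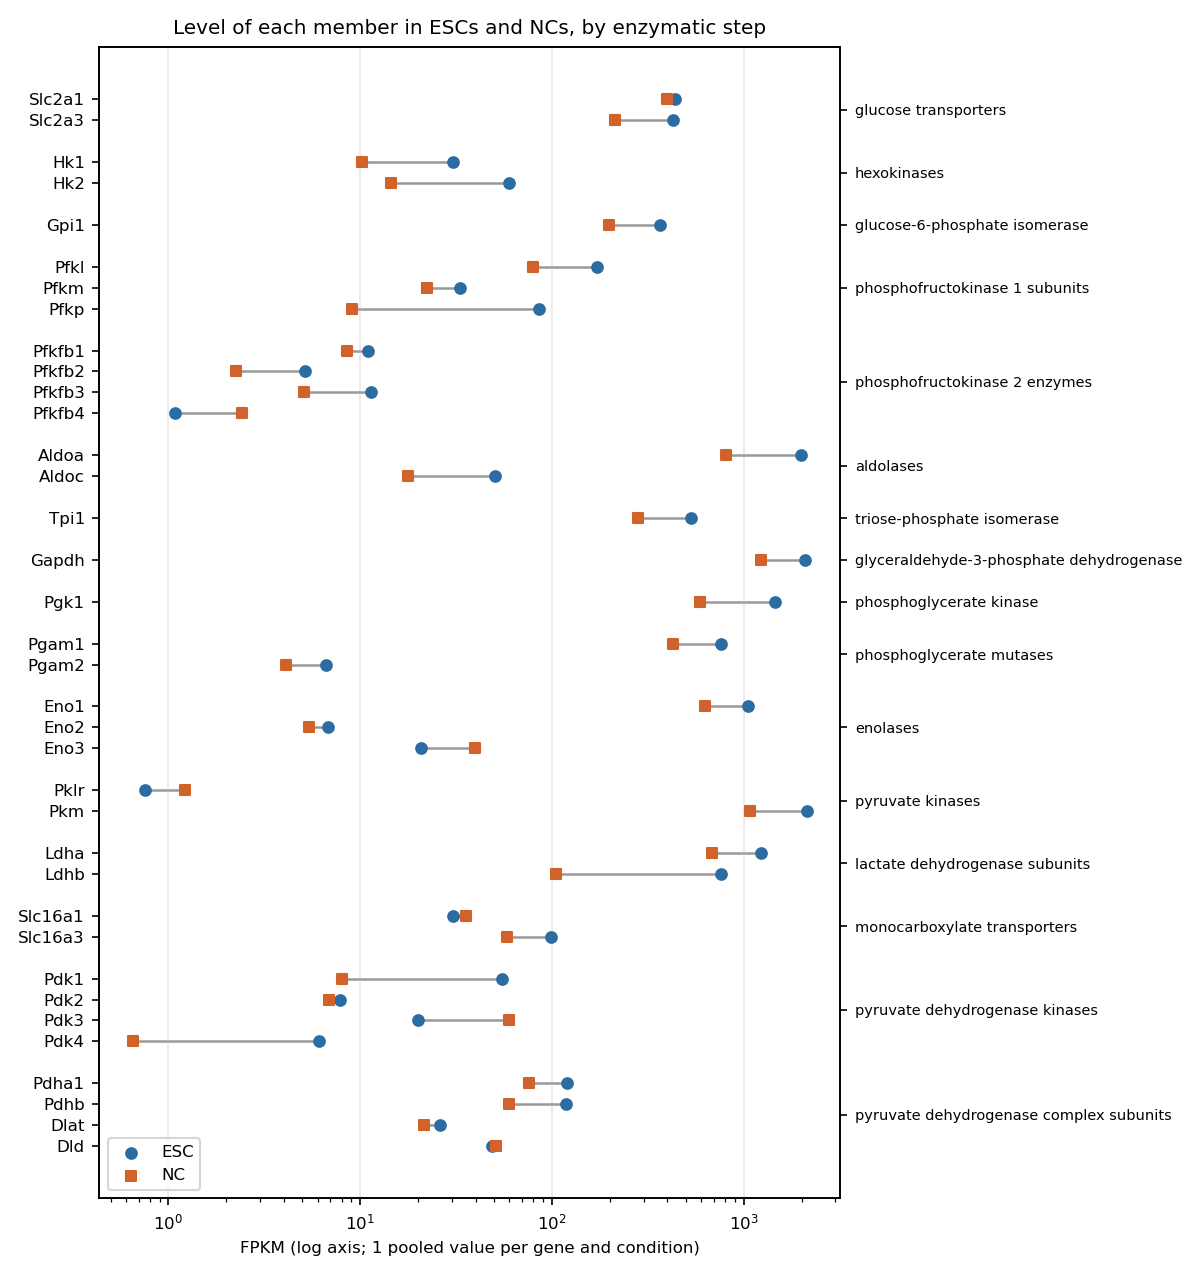
The FPKM of each of the 36 members is plotted on a log axis, with a circle for ESCs, a square for NCs and the step named at the right. Most squares lie to the left of their circles, and Pfkfb4, Eno3, Pklr, Slc16a1, Pdk3 and Dld have the square at the right.

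Many members are among the most abundant transcripts of these cells, and abundant genes as a whole lay lower in NCs. With the limit raised to a mean of 100 FPKM, a limit chosen after the data were seen, 13 members remained, and all 13 had the lower value in NCs, with a median log2 ratio of -0.93. Over the 893 genes of that abundance, 74.5% were lower and the median was -0.30. At least 2-fold lower levels were held by 5 of the 13 members, against 8.06% of those 893 genes, and at least 2-fold higher levels by 0 members, against 3.81%. Added up, the 36 members made 1.85% of all FPKM in ESCs and 1.15% in NCs.

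The scaling between the conditions bears on these counts. All FPKM of the table summed to 770592 for ESCs but only 628679 for NCs, and setting both sums equal would move every log2 ratio up by 0.29. On that scale 9 members were at least 2-fold lower and 3 at least 2-fold higher, so that 75.0% of the called members were lower, against 86.7% with the FPKM as deposited. Over all genes on that scale, 6.56% were at least 2-fold lower and 16.2% at least 2-fold higher, beside 25.7% and 8.57% of the members. The log2 ratios of Slc2a1, Pdk2 and Dlat then changed sign, to 0.17, 0.09 and 0.02. At 2-fold, Pfkl, Pfkfb2, Pfkfb3 and Slc2a3 lost their calls on that scale, and Eno3 gained 1. The fold of each gene between conditions shifts with this scaling, while shares of isoenzymes within a step and ratios of genes within a condition do not.

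**Figure D2:**
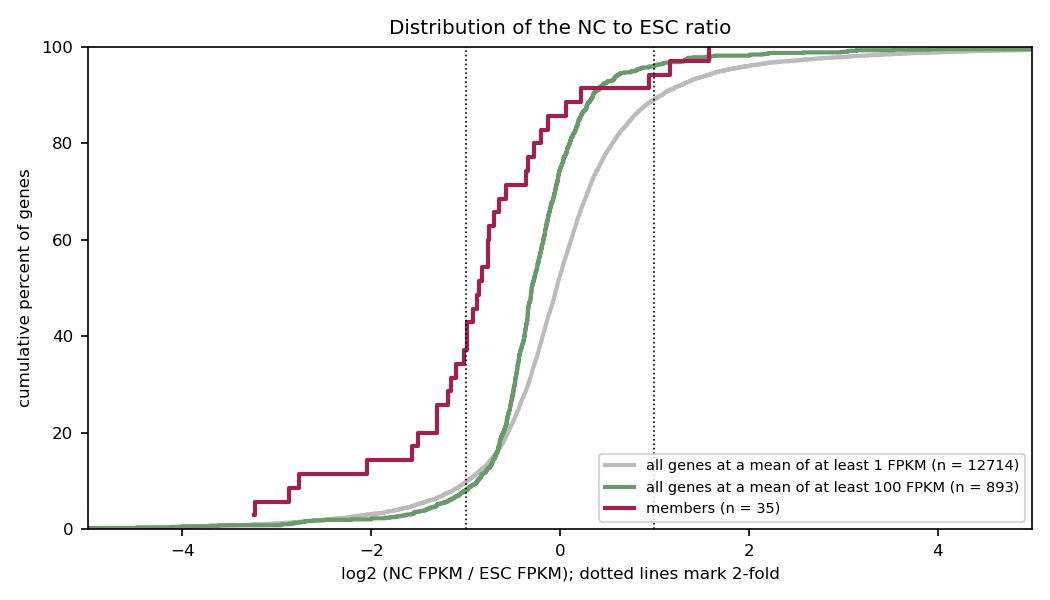
Cumulative percent of genes (y axis) by log2 ratio of NC to ESC FPKM (x axis) for the 35 members, for the 12714 genes with a mean of at least 1 FPKM and for the 893 genes with a mean of at least 100 FPKM. The curve of the members lies to the left of both others through most of its length, with medians of -0.86, -0.04 and -0.30.

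Glucose enters through the facilitative transporters encoded by Slc2a1 and Slc2a3, the latter with the higher affinity for glucose. In ESCs the pair stood at almost the same level, 435 FPKM for Slc2a1 and 429 FPKM for Slc2a3. NCs held 399 FPKM of Slc2a1 but 212 FPKM of Slc2a3, which put Slc2a3 2.02-fold lower, just inside the 2-fold limit with a log2 ratio of -1.01. The share of Slc2a1 in the summed level of both went from 50.4% in ESCs to 65.3% in NCs. Both genes stayed among the highest 2% of all genes by FPKM in each condition.

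The kinases that trap glucose in the cell differed most of all the steps. Hk2 (chromosome 6, 82725025 to 82774454 on GRCm38.p6, as all positions here), the inducible hexokinase, had 59.5 FPKM in ESCs against 14.5 in NCs, 4.12-fold lower. Hk1 (chromosome 10, 62268855 to 62379920), the housekeeping form, had 30.4 FPKM and 10.3 FPKM, 2.97-fold lower. Their summed level was 3.64-fold lower in NCs, the largest ratio among the 16 steps. Hk2 was the more abundant of the pair in each condition, 1.96 times Hk1 in ESCs and 1.41 times Hk1 in NCs. The hexokinases also had the lowest summed level of the enzymes in the glycolytic chain itself, in each condition. Gpi1, which turns glucose-6-phosphate into fructose-6-phosphate, had 366 FPKM in ESCs against 199 in NCs, a log2 ratio of -0.88, and shared 19.3% of its transcript, by 50-base words, with other annotated genes.

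Phosphofructokinase 1, the committed and most regulated step, is a tetramer built from liver (Pfkl), muscle (Pfkm) and platelet (Pfkp) subunits. Pfkp (chromosome 13, 6579874 to 6649060) had 85.8 FPKM in ESCs against 9.09 in NCs and was 9.44-fold lower, the widest difference of all members. Pfkl, the most abundant subunit in each condition, had 171 FPKM and 79.9 FPKM and was 2.15-fold lower. Pfkm differed least, with 33.1 FPKM in ESCs against 22.2 in NCs, 1.49-fold lower. The subunit make-up of the transcripts therefore differed between the conditions. Pfkp supplied 29.6% of the summed subunit level in ESCs and 8.18% in NCs, while the share of Pfkl was 59.0% and 71.8%, and that of Pfkm was 11.4% and 19.99%.

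The bifunctional phosphofructokinase 2 enzymes make and remove the sugar bisphosphate that activates phosphofructokinase 1, and all 4 genes were expressed at low levels. Pfkfb3, whose enzyme has the strongest bias toward making the activator, had 11.4 FPKM in ESCs against 5.11 in NCs, 2.23-fold lower. Pfkfb2, the form known from heart, had 5.14 FPKM and 2.25 FPKM, 2.28-fold lower. Pfkfb1, the form known from liver and muscle, differed by less, with 10.95 FPKM in ESCs against 8.52 in NCs. Against these, Pfkfb4, a form first known from testis, was 2.24-fold higher in NCs at 2.43 FPKM, from 1.09 FPKM in ESCs. Pfkfb2 and Pfkfb3 were within 2-fold with the FPKM sums set equal, and Pfkfb2 and Pfkfb4 were so with a pseudocount of 1. The share of Pfkfb3 went from 39.8% to 27.9% and that of Pfkfb4 from 3.81% to 13.3%. Pfkfb2 shares exon bases with neighbouring genes over 19.5% of its annotated exons, so part of its value could belong to them.

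Aldolase cleaves the hexose bisphosphate into a pair of trioses. Aldoa (chromosome 7, 126795234 to 126800994), the ubiquitous form, had 1991 FPKM in ESCs against 809.7 in NCs, 2.46-fold lower. Aldoc, the form known from brain, had 50.3 FPKM and 17.7 FPKM, 2.83-fold lower. The pair kept nearly the same balance, with Aldoa at 97.5% of the sum in ESCs and 97.9% in NCs. Aldoc, although a brain form, was not higher in the cells given RA. Over the hexose phase as a whole, from hexokinase to aldolase without the phosphofructokinase 2 enzymes, 6 of 8 genes were at least 2-fold lower in NCs, against 9.75% of all genes, with a median log2 ratio of -1.40. Pfkl, 1 of the 6, was within 2-fold with the FPKM sums set equal, at a log2 ratio of -0.81.

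**Figure D3:**
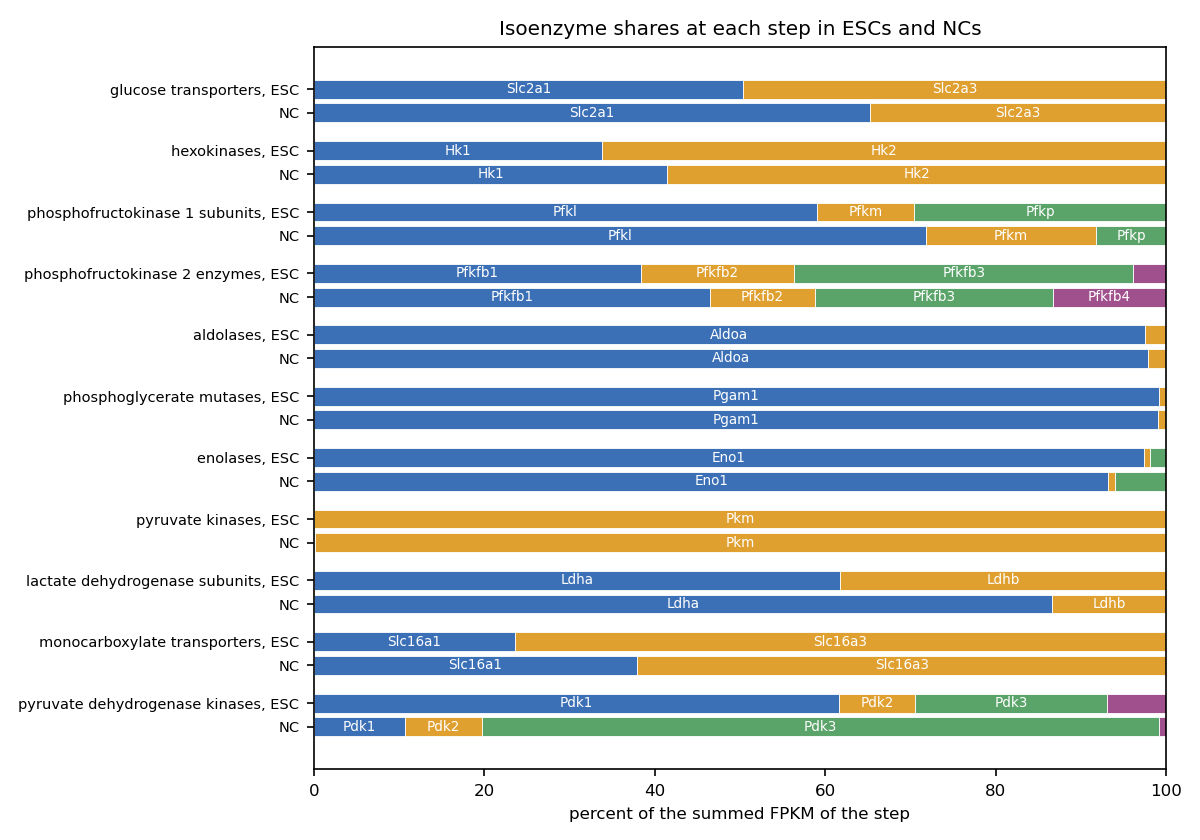
Each bar divides the summed FPKM of a step among its isoenzymes, in percent, for ESCs above and NCs below, for the 11 steps with isoenzymes or alternative subunits. Slices without a name are, from left to right within their bars, Pfkfb4, Aldoc, Pgam2, Eno2 and Eno3, Pklr and Pdk4. The widest differences are at the pyruvate dehydrogenase kinases and the lactate dehydrogenase subunits.

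The triose phase differed by less at the median. Over its 9 genes with a mean of at least 1 FPKM, the median log2 ratio was -0.77. The ratios ran from -1.30 to 0.95, and those of the hexose phase from -3.24 to -0.58. Of the 9 triose genes, only Pgk1 was at least 2-fold lower, against 9.75% of all genes, and 0 were at least 2-fold higher, against 10.9%. Pgk1 (chromosome X, 106187100 to 106203699), which makes the first ATP of the pathway, had 1459 FPKM in ESCs against 591 in NCs, 2.47-fold lower. Tpi1, which interconverts the trioses, had 533 FPKM and 281 FPKM, 1.90-fold lower. Gapdh, which reduces NAD and is widely used as a reference gene, had 2093 FPKM in ESCs against 1229 in NCs, 1.70-fold lower. Set against all genes, whose median log2 ratio was -0.04, Gapdh at -0.77 was not level between these conditions. Its value is uncertain, because 82.5% of its transcript by such words also occurs in other annotated genes, 215 of them pseudogenes. The same holds for Pgk1, with 68.0% of its words shared, and reads from such words can be assigned to either gene.

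The mutases and enolases were each dominated by 1 gene. Pgam1, the mutase of most tissues, made 99.1% of the mutase sum in ESCs and 99.0% in NCs, and its own level was 759 FPKM and 427 FPKM. Pgam2, the muscle form, had 6.64 FPKM and 4.10 FPKM. Eno1, the ubiquitous enolase, had 1052 FPKM in ESCs against 625 in NCs and made 97.5% and 93.2% of the enolase sum. Eno3 (chromosome 11, 70653125 to 70662513), the muscle enolase, went the other way from its paralogs, with 20.7 FPKM in ESCs against 39.9 in NCs, 1.93-fold higher, just outside the limit, which it passed with the FPKM sums set equal. The ratio of Eno1 to Eno3 was 50.9 in ESCs and 15.7 in NCs. Eno2, the enolase used as a neuron marker, was not the one with the higher level, at 6.81 FPKM in ESCs against 5.39 in NCs. Words shared with other genes covered 72.2% of the Eno1 transcript and 41.5% of that of Pgam1, and neither Eno3 nor Pgam2 shared any.

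Pyruvate kinase closes the pathway with the second ATP yield. Pkm, the gene for its M forms, was the most abundant member in ESCs with 2123 FPKM and had 1075 FPKM in NCs, 1.97-fold lower and just outside the limit. Its splice forms share the gene's value and cannot be separated in this table, and words shared with other genes covered 34.4% of the transcript. Pklr, the liver and red cell form, had 0.752 FPKM in ESCs against 1.21 in NCs, and Pkm supplied 99.96% and 99.89% of the sum. Exons of a gene on the other strand overlap 22.0% of the exon bases of Pklr. The order of the steps by summed level was nearly kept. Pyruvate kinase led in ESCs with Gapdh next, and in NCs Gapdh led with pyruvate kinase next, while the phosphofructokinase 2 enzymes were last in each.

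**Figure D4:**
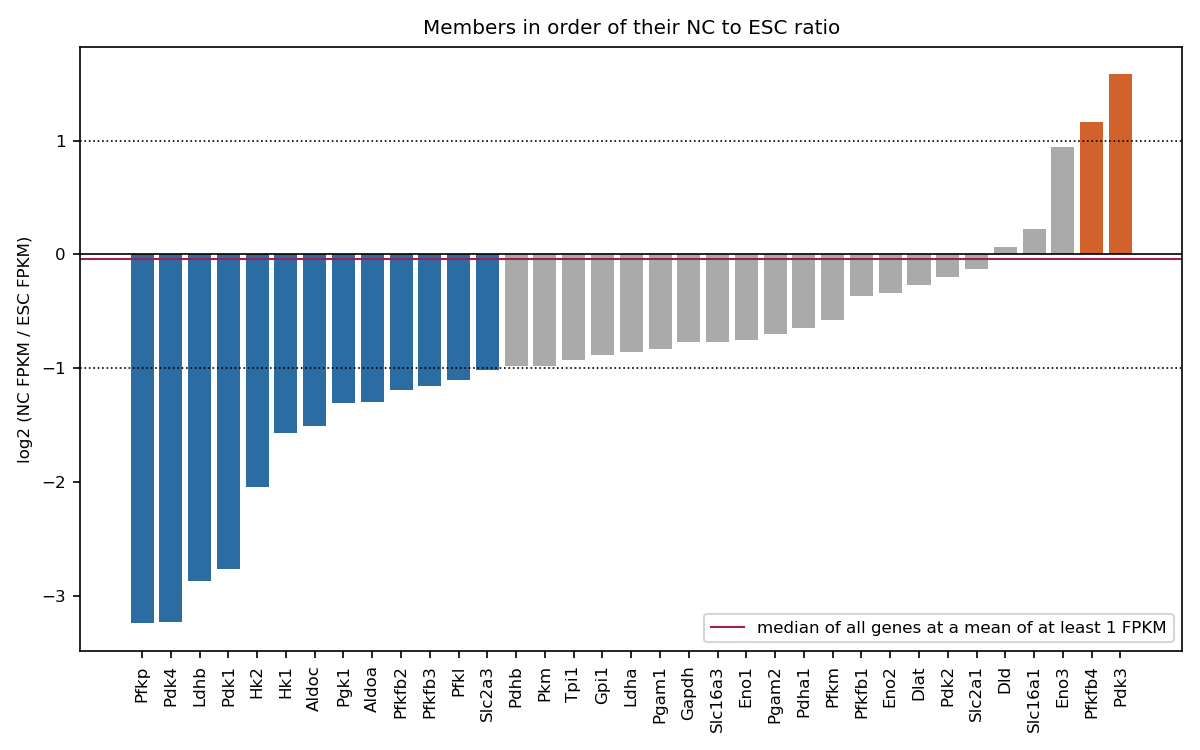
The log2 ratio of NC to ESC FPKM (y axis) is drawn as 1 bar for each of the 35 members with a mean of at least 1 FPKM, in order, with dotted lines at 2-fold. Blue bars are the 13 members at least 2-fold lower, orange bars are Pfkfb4 and Pdk3, and 4 bars, those of Pfkp, Pdk4, Ldhb and Pdk1, stand apart at log2 ratios from -3.24 to -2.76.

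At the lactate step the balance of subunits differed more than at any glycolytic step. The enzyme is a tetramer of A subunits (Ldha), which favour making lactate, and B subunits (Ldhb), known for the use of lactate. Ldhb (chromosome 6, 142490249 to 142507957) had 763 FPKM in ESCs against 105 in NCs, 7.29-fold lower. Ldha (chromosome 7, 46842274 to 46855627) had 1231 FPKM and 679 FPKM, 1.81-fold lower. The summed level was thus 2.54-fold lower in NCs, and within it the share of Ldha was 61.7% in ESCs and 86.6% in NCs, so that Ldha had 1.61 and 6.49 times the level of Ldhb. ESCs held a mixed set of subunit transcripts, and in NCs the A subunit predominated. Words shared with other genes covered 27.0% of the Ldhb transcript and 16.6% of that of Ldha. Lactate leaves or enters the cell through monocarboxylate transporters, of which Slc16a3, an exporter of glycolytic cells, had 99.2 FPKM in ESCs against 58.3 in NCs. Slc16a1, the widespread transporter that also takes lactate up, had 30.6 FPKM and 35.7 FPKM. Slc16a3 exceeded Slc16a1 3.25 times in ESCs and 1.63 times in NCs, and neither gene differed by 2-fold.

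The gate to the mitochondrion held the largest exchange of isoenzymes. The 4 pyruvate dehydrogenase kinases phosphorylate and inactivate the pyruvate dehydrogenase complex, and the pattern among them was nearly inverted between the conditions. Pdk1 (chromosome 2, 71873215 to 71903858), a kinase gene known to be induced by low oxygen, had 54.7 FPKM in ESCs against 8.07 in NCs, 6.78-fold lower. Pdk3 (chromosome X, 93764616 to 93832150) had 20.1 FPKM and 60.0 FPKM, 2.99-fold higher and the highest ratio of all members. Pdk4 (chromosome 6, 5483351 to 5496278), the kinase gene known from fasting and fat use, had 6.13 FPKM in ESCs against 0.654 in NCs, 9.36-fold lower. With so low a level in NCs, its log2 ratio of -3.23 became -2.11 with a pseudocount of 1. Pdk2, the form found in most tissues, differed little, with 7.87 FPKM and 6.85 FPKM. Of the summed kinase level, Pdk1 made 61.6% in ESCs and 10.7% in NCs, and Pdk3 made 22.6% and 79.4%. In ratio, Pdk1 had 2.73 times the level of Pdk3 in ESCs, while Pdk3 had 7.44 times the level of Pdk1 in NCs. The sum itself differed least of all 16 steps, 88.8 FPKM in ESCs against 75.6 in NCs, 1.17-fold lower.

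The complex that these kinases act on was lower in part. Pdha1, the phosphorylated E1 alpha subunit, had 119 FPKM in ESCs against 76.1 in NCs, 1.57-fold lower. Pdhb, the E1 beta subunit, had 118 FPKM and 59.8 FPKM, 1.98-fold lower and just outside the limit. The other subunits were closer to level. Dlat, the acetyltransferase core, had 25.98 FPKM and 21.5 FPKM, and Dld, the dehydrogenase shared with other complexes, had 48.8 FPKM in ESCs against 51.1 in NCs. Summed kinase transcripts stood at 0.748 times the mean of Pdha1 and Pdhb in ESCs and at 1.11 times in NCs. Words shared with another gene covered 30.3% of the Pdhb transcript, and exons of a gene on the other strand overlap 16.1% of those of Pdha1.

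The promoters of the genes with the widest exchange are printed to show how the windows of paralogs with unlike levels differ in sequence. Each window runs from 250 bases before to 50 bases after a RefSeq start in GRCm38.p6, the assembly that mm10 also names, and is written 5′ to 3′ on the strand of the gene. Capitals mark ACGTG, the core letters of the hypoxia response element, on either strand, with overlapping matches joined, as in the palindrome CACGTG that E-box factors also read. The windows are Ldha at chr7:46845554-46845853 (plus strand), Ldhb at chr6:142507908-142508207 (minus strand), Pdk1 at chr2:71872974-71873273 (plus strand) and Pdk3 at chrX:93832101-93832400 (minus strand).
Ldha: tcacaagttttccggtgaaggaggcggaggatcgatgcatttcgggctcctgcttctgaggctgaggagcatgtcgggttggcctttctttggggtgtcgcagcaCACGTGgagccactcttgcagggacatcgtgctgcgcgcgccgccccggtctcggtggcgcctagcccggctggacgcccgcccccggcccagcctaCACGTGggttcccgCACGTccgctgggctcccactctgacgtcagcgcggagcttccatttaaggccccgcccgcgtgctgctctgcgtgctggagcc
Ldhb: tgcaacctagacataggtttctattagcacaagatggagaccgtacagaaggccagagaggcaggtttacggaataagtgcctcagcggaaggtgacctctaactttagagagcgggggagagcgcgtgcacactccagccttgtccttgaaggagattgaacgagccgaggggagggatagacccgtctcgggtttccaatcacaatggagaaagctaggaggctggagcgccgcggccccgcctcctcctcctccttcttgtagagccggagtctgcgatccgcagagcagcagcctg
Pdk1: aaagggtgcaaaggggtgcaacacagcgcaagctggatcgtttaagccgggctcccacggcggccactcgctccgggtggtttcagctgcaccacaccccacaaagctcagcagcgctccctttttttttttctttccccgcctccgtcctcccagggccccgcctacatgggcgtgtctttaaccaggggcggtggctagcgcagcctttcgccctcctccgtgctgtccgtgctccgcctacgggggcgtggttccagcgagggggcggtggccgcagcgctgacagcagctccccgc
Pdk3: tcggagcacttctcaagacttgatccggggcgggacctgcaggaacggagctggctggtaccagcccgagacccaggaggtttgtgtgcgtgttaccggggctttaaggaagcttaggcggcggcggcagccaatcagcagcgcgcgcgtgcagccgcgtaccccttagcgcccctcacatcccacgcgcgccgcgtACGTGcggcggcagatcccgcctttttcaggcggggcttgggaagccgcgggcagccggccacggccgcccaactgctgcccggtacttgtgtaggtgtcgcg
The Ldha window held 3 matches and that of Pdk3 held 1, while those of Ldhb and Pdk1 held 0. Ldha and Pdk1 each have another window in the RefSeq table, not printed, and both of those held 0. Ldha had the higher level of its pair in each condition, while Pdk3 had it in NCs and Pdk1 had it in ESCs. Whether the letters bear on these levels was not tested.

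Over the 35 members with a window in the RefSeq table, ACGTG occurred on either strand in at least 1 window of 18 genes (51.4%), against 21.8% of all 27025 genes and 29.9% of the 9351 genes with a mean of at least 1 FPKM. Counted by window, 40.0% of the members' 55 windows held it, against 19.6% of all 32851 windows and 25.7% of the 11992 windows of genes with a mean of at least 1 FPKM. The log2 ratios of members with and without the letters overlapped, from -2.04 to 1.58 with a match and from -3.24 to 1.16 without. Whether they differ was not tested. Over all genes with a mean of at least 1 FPKM, 9.75% were at least 2-fold lower in NCs and 10.9% higher. Of the 18 members with a match, 7 were at least 2-fold lower and 1 higher in NCs, with a median log2 ratio of -0.92, and of the 16 without a match and with a mean of at least 1 FPKM, 5 were lower and 1 higher, with a median of -0.72. Pfkp, Pdk4, Ldhb and Pdk1, the members with the lowest ratios, had 0 matches, and Hk2, next in order, had 2. AGGTCA, the half-site that retinoic acid and other nuclear receptors read, occurred in 9 of the 35 members (25.7%), against 18.1% of all genes and 14.7% of those with a mean of at least 1 FPKM. Of the 8 such members counted, 2 were at least 2-fold lower and 0 higher. Of the 26 counted without it, 10 were lower and 2 higher, and the median log2 ratio was -0.84 in each set. A match is a description of the letters and does not show that a factor was bound.

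Genes of the same metabolism outside the 36 gave a background for these values, and their lists were set up with the members. Of 13 other glycolytic isoenzymes, 8 had a mean of at least 1 FPKM, and 1 of these was at least 2-fold lower, namely Pgm2, a phosphoglucomutase, with 42.7 FPKM in ESCs against 15.9 in NCs. Among 6 other lactate and pyruvate transport genes at that level, Ldhd, the mitochondrial dehydrogenase of D-lactate, had 2.01 FPKM in ESCs against 0.376 in NCs, and Ldhc, the testis subunit, had 2.83 and 0.665 FPKM. The subunits of the mitochondrial pyruvate carrier went apart, with Mpc1 at 12.7 and 6.68 FPKM and Mpc2 at 10.8 and 16.2 FPKM. Of 9 counted genes for the pyruvate dehydrogenase complex, its phosphatases and carboxylation, 2 were at least 2-fold lower, namely Pcx, the pyruvate carboxylase, and Pdp1, the phosphatase that reverses the kinases, which had 4.28 FPKM in ESCs against 1.90 in NCs. Of 3 counted glucose transporters outside the members, 0 passed 2-fold.

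The tricarboxylic acid cycle and the pentose phosphate pathway, which branches off near the start of glycolysis, had medians closer to 0 than that of the members. Of the 16 genes of the tricarboxylic acid cycle, 15 had the lower value in NCs, but the median log2 ratio was -0.25 and only Idh3a, a catalytic subunit of isocitrate dehydrogenase, was at least 2-fold lower, with 81.9 FPKM and 37.4 FPKM. The 7 pentose phosphate genes had a median of -0.43, and 0 passed 2-fold in either direction. Many glycolytic genes are known targets of the hypoxia-inducible factors, so genes induced by low oxygen outside glycolysis were listed as well. Of 13 counted, 7 were at least 2-fold lower in NCs, 0 were higher, and the median was -1.04. Ddit4, an inhibitor of growth signalling, had 244 FPKM in ESCs against 43.2 in NCs, and Bnip3, a mitophagy receptor, had 146 FPKM and 47.5 FPKM. The 8 listed factors and regulators of the pathway mix subunits of the factor with genes that act on it. Their median of 0.30, with 5 genes higher in NCs, therefore gives no direction for the pathway. Egln3, an oxygen-sensing hydroxylase that is itself induced, was 4.10-fold lower, and Epas1, an alpha subunit of the factor, was 2.35-fold lower. The labels give no oxygen level, and the part of this pathway in the members' values was not tested.

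**Figure D5:**
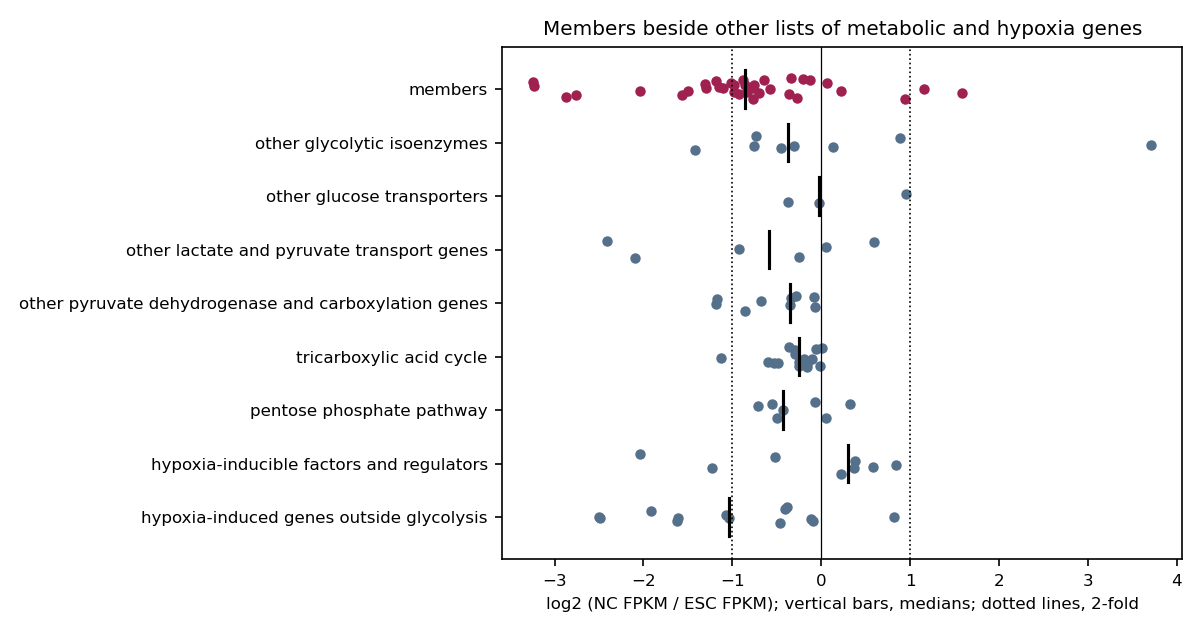
Each dot is the log2 ratio of NC to ESC FPKM of 1 gene with a mean of at least 1 FPKM, in the list named at the left, with the median as a vertical bar. The members (median -0.86) and the hypoxia-induced genes outside glycolysis (median -1.04) lie furthest to the left, and the tricarboxylic acid cycle (median -0.25) lies near 0.

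The number of fragments per sample is not given by the table, so the depth behind the lowest members was read from the smallest values of genes with a single transcript. In ESCs 71 of the 213 lowest such values fell between 0.0135 and 0.014 when multiplied by the effective transcript length in kilobases, and in NCs 126 of 289 fell between 0.007 and 0.0075. For NCs the higher step of 0.014 to 0.0145, which held 36 values, was used. It gives fewer fragments and larger counting errors than the step with 126 values would. Taken as the worth of 1 fragment, these steps put Pdk4 at about 148 fragments in NCs, Pfkfb4 at about 256 in ESCs and Pklr at about 145 in ESCs. The counting error of the log2 ratio would then be 0.12 for Pdk4, 0.11 for Pfkfb4, 0.14 for Pgam2, 0.15 for Pklr and at most 0.07 for every other member. Such errors cover counting only and leave out the spread between the 3 samples of a condition, which the table does not hold.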

How the data were processed

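RNA-seq libraries of 3 ESC and 3 NC samples were made from total RNA with a TruSeq RNA kit and sequenced on an Illumina HiSeq instrument. Per the submitters' processing notes and the study's methods, the authors mapped reads to mm10 with TopHat2 (version 2.0.8, run on Bowtie2, version 2.1.0), built transcripts with Cufflinks (version 2.0.2), joined them with Cuffmerge and ran Cuffdiff on the pair of conditions. The Cuffdiff version, its normalization setting, the annotation release and whether strand was used are not given in the sources used here. The deposited table holds FPKM estimated by the authors, 1 value per gene and condition. The heading of the NC column reads FPK and was taken as FPKM, since its range and quartiles are like those of the ESC column. The table also holds the authors' own fold changes, test statistics, p-values, q-values and significance flags, which were not used.

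The log2 ratio of NC to ESC was computed without a pseudocount. A gene was counted at a mean of at least 1 FPKM with both values above 0, which left out 68 genes listed at 0 in 1 condition, and called at 2-fold. For 160 repeated names, none of them a member, the row with the highest mean was used. All 36 members are named, and of each other list up to 4 genes with the largest absolute log2 ratio and a mean of at least 1 FPKM. Some results within this rule are not reported here. Members and lists were chosen with earlier results of these data known. The raised limit of 100 FPKM, the reading of depth and the promoter windows printed were chosen after the data were seen. Gene positions and promoter windows came from RefSeq on GRCm38.p6, where 35 of 36 members had a window. Shared 50-base words and exon overlaps came from GENCODE M21. Fragments were taken as 200 bases long. The functions were tested on simulated data. Python 3.11.15 was used with numpy 2.4.6, pandas 2.3.3 and matplotlib 3.10.9. Alternatives covered the fold limit, the filter on FPKM, pseudocounts, the scaling between conditions and repeated names.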

Additional observations from a re-analysis of the deposited data

How the results depend on the processing

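The 13 members at least 2-fold lower in NCs became 24 with a limit of 1.5-fold (68.6% of members, against 18.6% of all genes). They became 5 with a mean of at least 100 FPKM (38.5%, against 8.06% of all genes), a limit added after the data were seen. The 2 members at least 2-fold higher became 1 with a mean of at least 5 FPKM (3.1% of members, against 6.64% of all genes). They became 1 with a pseudocount of 1 (2.86%, against 7.66%) and 0 with a mean of at least 100 FPKM (against 3.81%). The median log2 ratio of the members was -0.56 with both FPKM sums set equal, against 0.26 for all genes. The share of Pdk1 among the kinases differed by -51.0 percentage points between the conditions and by -48.7 with a pseudocount of 1. With the sums set equal, Pfkfb2, Pfkfb3, Pfkl and Slc2a3 no longer passed 2-fold and Eno3 did. Slc2a3 also lost its call with ratios centred on the median of all genes and with upper quartiles set equal, and Eno3 also passed 2-fold with upper quartiles set equal. With a pseudocount of 1, Pfkfb2 and Pfkfb4 lost theirs. Over all alternatives, 45 log2 ratios of single members moved by more than 0.1 and 171 did not. Most of this tally was set by the alternatives themselves and does not measure how stable the values are. The scalings moved all ratios alike, by 0.29, 0.04 and 0.09, and 0 members had a repeated name. Among members past 2-fold no ratio changed sign, and under these alternatives none could. The other changes in share moved by at most 2 percentage points. Leaving out a sample was not possible. No paired analysis was possible because the table holds 1 pooled value per condition. The spread between samples is therefore unknown, and depth limits mainly Pklr, Pgam2, Pfkfb4 and Pdk4.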
